A study of Homo sapiens with 13 samples.

Results

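The 31 genes described here encode the enzymes that make cholesterol and fatty acids and the proteins that set their transcription. They were chosen by name, from the platform's gene symbols, and 28 of the 31 were measured, among 11963 measured genes in all. FDFT1, CYP51A1 and FADS1 had no probe set annotated to that symbol alone and were not analysed here. All 28 measured members were bright enough to be tested, as were 7731 of the 11963 genes. The 28 fall into 7 of 7 genes of the mevalonate pathway, 9 of 11 genes from squalene to cholesterol, 5 of 5 regulators and 7 of 8 fatty acid genes.

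The cells were MCF10A, a spontaneously immortalized, non-tumorigenic human mammary epithelial line. Each of 13 Affymetrix arrays held total RNA of cells that had been deprived of serum for 24 h, so every array shares that deprivation. EGF, the ligand of the EGF receptor, was given for 20, 40, 60, 120, 240 or 480 min, with 1 array each. A mixture that the labels call serum (heat-inactivated horse serum, insulin, hydrocortisone and cholera toxin) was given for the same 6 times, with 1 array each, and 1 array held unstimulated cells. The growth medium before deprivation held 5% horse serum and 10 ng/ml EGF. The dose of each stimulus is not given separately. The ingredients of the mixture cannot be told apart, and its lipids, hormones and toxin reached the cells together.

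Cells build cholesterol from acetyl-CoA through mevalonate, isoprenoid diphosphates and squalene, and most genes of that route are transcribed under the control of SREBF2, while SREBF1 acts more on fatty acid genes. Both proteins are made as precursors held in the endoplasmic reticulum by SCAP and by the INSIG proteins when sterols are plentiful. When sterols fall, SCAP carries the precursors to the Golgi, where proteases release the active factor. INSIG1 is itself a target of these factors and closes a feedback loop. SREBF1 transcription is also raised by insulin and by the sterol-sensing LXR receptors, as known from liver. In mammary epithelium the pathway supplies membrane lipid to dividing cells and milk fat in lactation.

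The promoters of the 4 members with the largest late differences between EGF and serum, INSIG1, SREBF1, HMGCS1 and IDI1, are shown so that the letters next to the start sites can be read beside the values. SREBF2 is added because, of the 27 members with an entry, its window alone held the searched sterol regulatory element. Each is the 250 bases before the first listed transcript start, on the gene's strand, from RefSeq (GRCh38.p14). The windows are chr7:155297628-155297877 on the plus strand for INSIG1, chr17:17836987-17837236 on the minus strand for SREBF1 and chr5:43313413-43313662 on the minus strand for HMGCS1. For IDI1 the window is chr10:1056705-1056954 on the minus strand and for SREBF2 chr22:41832855-41833104 on the plus strand. Capitals mark matches, on either strand and with overlaps allowed, to the sterol regulatory element TCACNCCAC, the E-box CACGTG, the CCAAT box and the GC box GGGCGG.
INSIG1: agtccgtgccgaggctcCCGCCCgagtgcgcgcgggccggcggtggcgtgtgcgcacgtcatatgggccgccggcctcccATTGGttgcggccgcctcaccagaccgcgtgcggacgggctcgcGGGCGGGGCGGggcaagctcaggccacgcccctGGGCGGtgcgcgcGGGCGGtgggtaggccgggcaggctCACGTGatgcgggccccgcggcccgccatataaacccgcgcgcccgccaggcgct
SREBF1: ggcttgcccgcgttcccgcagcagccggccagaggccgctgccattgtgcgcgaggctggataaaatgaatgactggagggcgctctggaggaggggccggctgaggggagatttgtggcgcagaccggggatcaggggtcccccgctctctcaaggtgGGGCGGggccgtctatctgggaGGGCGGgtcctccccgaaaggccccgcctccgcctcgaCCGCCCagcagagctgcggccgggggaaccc
HMGCS1: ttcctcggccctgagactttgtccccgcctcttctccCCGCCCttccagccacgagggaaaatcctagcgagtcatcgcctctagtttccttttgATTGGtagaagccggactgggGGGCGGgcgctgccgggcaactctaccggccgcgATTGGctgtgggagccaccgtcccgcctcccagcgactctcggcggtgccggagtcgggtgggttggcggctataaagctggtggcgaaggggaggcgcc
IDI1: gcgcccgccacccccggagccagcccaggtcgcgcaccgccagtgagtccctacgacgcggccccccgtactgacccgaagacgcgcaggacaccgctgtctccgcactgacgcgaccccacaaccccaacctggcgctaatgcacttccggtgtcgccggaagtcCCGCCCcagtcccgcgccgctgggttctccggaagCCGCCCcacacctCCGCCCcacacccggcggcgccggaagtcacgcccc
SREBF2: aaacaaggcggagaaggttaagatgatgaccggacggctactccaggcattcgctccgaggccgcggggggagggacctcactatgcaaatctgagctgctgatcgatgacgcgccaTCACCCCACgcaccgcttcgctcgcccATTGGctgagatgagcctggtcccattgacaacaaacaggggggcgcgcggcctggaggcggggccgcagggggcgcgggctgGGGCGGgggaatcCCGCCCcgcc
The INSIG1 window held 1 CCAAT box, 1 E-box and 5 GC boxes, and the HMGCS1 window 2 CCAAT boxes and 2 GC boxes. The SREBF1 and IDI1 windows held 3 GC boxes each and no match to the other motifs. The SREBF2 window held 1 sterol regulatory element, 1 CCAAT box and 2 GC boxes. Over the 27 members with an entry, the element occurred in 1 window, against 0.875% of 27305 genes. A CCAAT box occurred in 17 of the 27 (63.0%), against 33.0% of those genes, an E-box in 4 (14.8%), against 6.49%, and a GC box in 24 (88.9%), against 42.3%. These are letter matches in short windows and do not show binding. IDI1 has 3 listed starts and HMGCS1 has 2, of which the first was used.

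Signals below are the authors' MAS5 signals on a linear scale, and differences are on the log2 scale of signal plus 6 after quantile normalization, with SE the standard error. Levels of different genes are not compared, since probe sets differ in brightness. The times 20, 40 and 60 min are called early and 120, 240 and 480 min late. No stimulus and time had a second array, and nothing in the labels shows separate cultures. The p-values, two-sided and adjusted over the 7731 genes with limma at a threshold of 0.05, therefore measure the spread between these arrays only. For late against early arrays, change over time within a phase is part of that spread. The number of arrays limits the precision. The title of the earliest EGF array says 20 min and its description 40 min, and the title was used. The serum array of 20 min stood somewhat apart, with 33.3% of probe sets under a signal of 20, against 36.7% to 40% on the others. The basal epithelial markers KRT5, KRT14, ITGB4 and S100A2 summed to 18250.6 to 25352 on the 13 arrays, whereas the adipocyte markers ADIPOQ, PLIN1 and FABP4 together reached 41.0 at most and the endothelial marker PECAM1 27.0. Of the leukocyte markers CD14 had 86.1 to 286 and PTPRC 0.3 to 12.8. Of the fibroblast markers COL1A1 had 22.4 to 77.7 and COL3A1 0.4 to 15.8. In bulk RNA, fewer cells of a type and less RNA per cell cannot be told apart.

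EGF and serum were compared at each time to ask whether the growth factor alone and the mixture move lipid synthesis genes alike. At the late times INSIG1, the sterol-sensing brake on SREBP processing, was 1.91-fold higher after EGF than after serum, and it was the one member to pass the test (1 of 28). Of all 7731 genes, 0.750% passed in this comparison, or 0.246% higher after EGF. SREBF1, HMGCS1 and IDI1 had differences of comparable size, 2.20-fold, 1.83-fold and 1.56-fold, without passing. The late EGF arrays were all above, and the late serum arrays all below, the unstimulated array for INSIG1, HMGCS1 and IDI1. That pattern held in 3 of 28 members, against 2.20% of the genes tested.

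**Figure D1:**
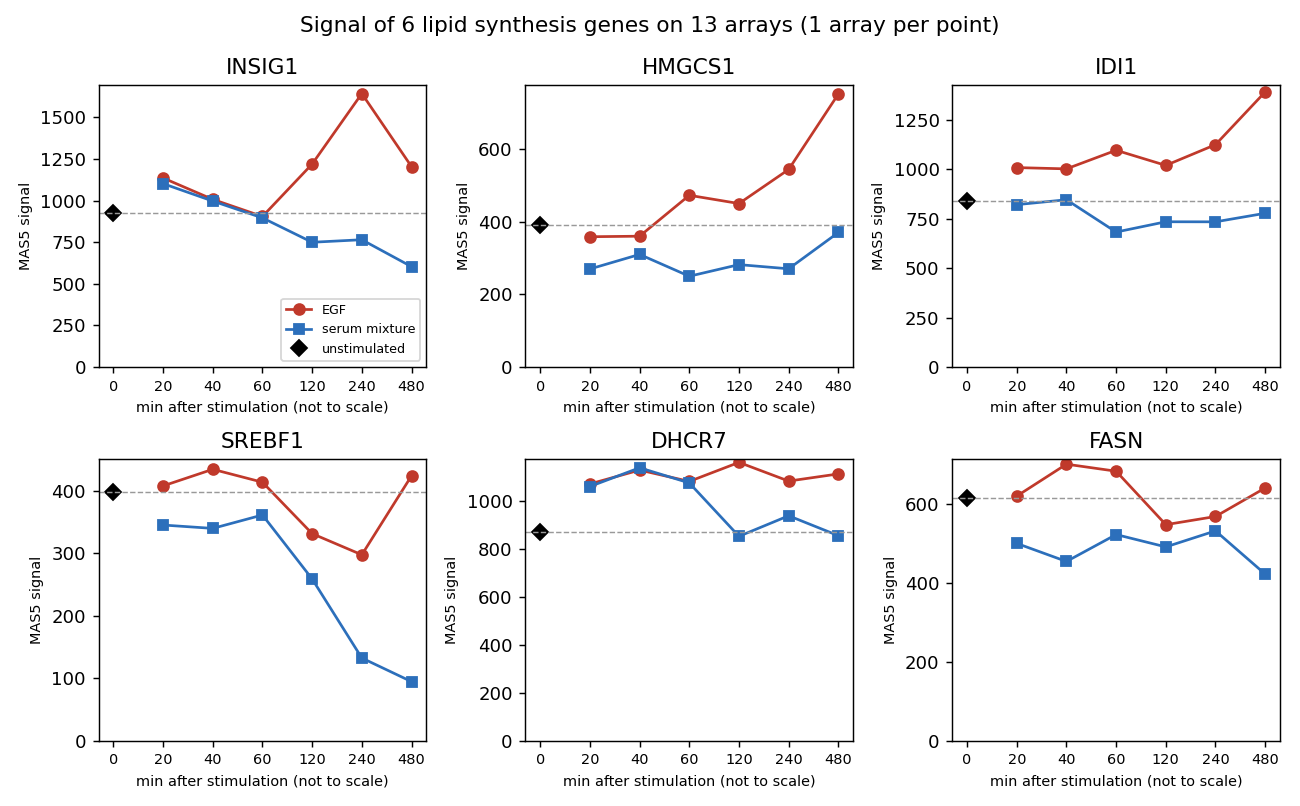
MAS5 signal (linear axis from 0) of 6 members against minutes after stimulation, with EGF as circles, the serum mixture as squares and the unstimulated array as a diamond and dashed line, 1 array per point. INSIG1 separates from 120 min on, SREBF1 reaches 94.6 on the serum array of 480 min, and HMGCS1, IDI1 and FASN lie higher after EGF at each of the 6 times.

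INSIG1, which holds SCAP in the endoplasmic reticulum, had signals of 1136, 1007, 904.5, 1219.6, 1643 and 1204 from 20 to 480 min after EGF. After serum the 6 values were 1102, 997, 896, 749, 765 and 603, and the unstimulated array had 924. Both stimuli gave nearly the same values up to 60 min, and from 120 min the EGF arrays were high and the serum arrays low, with no overlap. The EGF minus serum difference was -0.02, 0.01 and 0.02 at the early times, in time order, and 0.68, 1.14 and 0.98 at the late ones. On the log2 scale the late mean was 10.40 ± 0.27 after EGF and 9.47 ± 0.18 after serum. The early mean was 9.98 ± 0.16 after EGF and 9.98 ± 0.18 after serum (SD, n = 3 each). Each SD is over 3 times with 1 array each, so it includes change over time. The late difference was 0.93 (SE 0.12, limma adjusted p = 0.0241), and the early one was 0.00 (SE 0.12, adjusted p = 0.991). The difference between these differences, 0.93 (SE 0.16), did not pass (limma adjusted p = 0.199). Late minus early was 0.42 after EGF (SE 0.16, limma adjusted p = 0.283) and -0.51 after serum (SE 0.16, adjusted p = 0.117).

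The INSIG1 call was close to the threshold. Over 22 alternatives the late difference ran from 0.83 to 1.06 and its limma adjusted p from 2.03e-05 to 0.138, and it passed in 7. It did not pass when any 1 of the 12 stimulated arrays was left out, when dim genes were kept, when late meant 240 and 480 min only, or when both arrays of 20 min were left out. The 3 INSIG1 probe sets gave late differences of 0.93, 1.29 and 0.72, and in each the 3 late EGF arrays lay above the 3 late serum arrays. INSIG2, the second INSIG protein, had signals of 169, 181, 116, 134, 146 and 144 after EGF. After serum INSIG2 had 171, 169.5, 150.4, 162, 186 and 146, and unstimulated cells had 141. After normalization its late EGF values were all below its late serum values, by a difference of -0.24 (SE 0.13, limma adjusted p = 0.364).

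SREBF1 encodes the SREBP form that acts most on fatty acid genes. After EGF its signals were 408, 435, 414, 332, 298 and 424 from 20 to 480 min. After serum they were 345.5, 340.1, 362, 259, 132 and 94.6, and the unstimulated array had 399. The serum arrays of 240 and 480 min were the lowest of the 13, at 0.351 and 0.26 times the unstimulated value after normalization, whereas the EGF array of 480 min was at 1.04 times. The paired difference was 0.23, 0.35, 0.19, 0.32, 1.08 and 2.0 in time order. Its late mean difference, 1.14 (SE 0.28), was the largest of the members and did not pass (limma adjusted p = 0.113). It was 0.70 without either array of 480 min, whose time pair then leaves the estimate. Late minus early after serum was -1.18 (SE 0.27, 2.27-fold lower, limma adjusted p = 0.057), and after EGF it was -0.30 (SE 0.27, adjusted p = 0.639). The serum value ran from -1.56 to -0.88 over 22 alternatives and passed in 5 of them.

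SREBF2, the SREBP form that acts most on cholesterol genes, had 278, 247, 269, 232, 184 and 202 after EGF. After serum SREBF2 had 187, 216, 201, 208, 189 and 168, and unstimulated cells had 217.5. The early EGF arrays were high, above all early serum arrays, with a difference of 0.39 (SE 0.12, limma adjusted p = 0.248), and its late arrays overlapped, with 0.09 (SE 0.12, adjusted p = 0.721). The other SREBF2 probe set gave a late difference of -0.27. SCAP, the escort of both precursors, had 509, 521, 479, 430.4, 419.6 and 437 after EGF. After serum SCAP had 530.2, 519, 493, 511, 503.5 and 504, and unstimulated cells had 535.5. The late EGF values of SCAP were all below its late serum values, a difference of -0.25 (SE 0.09, limma adjusted p = 0.217). The 5 regulators therefore showed no common direction at the late times, with 3 differences above 0, 2 below and a median of 0.09 (0.04 to 0.17 with 1 array left out). Over 22 alternatives that median ran from -0.09 to 0.17.

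The mevalonate pathway turns acetyl-CoA into isoprenoid diphosphates. HMGCS1, which makes HMG-CoA, had signals of 358, 359.9, 472.5, 449.8, 544 and 751 from 20 to 480 min after EGF. After serum HMGCS1 had 269.6, 309.7, 249.6, 282, 270.1 and 370.1, and the unstimulated array had 389. EGF was above serum in 6 of 6 time pairs, and its 480 min value was 1.93 times the unstimulated one after normalization, against 0.949 times for serum at 480 min. The late difference was 0.87 (SE 0.16, limma adjusted p = 0.0695), the early one 0.51 (SE 0.16, adjusted p = 0.246) and that over all times 0.69 (SE 0.12, 1.62-fold, adjusted p = 0.0628). Its other probe set gave 0.72 at the late times, 0.20 at the early ones and 0.46 over all times. EGF was higher in 5 of 6 pairs in that probe set.

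IDI1, which interconverts the isoprenoid building blocks, had 1009, 1003, 1097, 1020.5, 1125.5 and 1392.5 after EGF. After serum IDI1 had 822, 846.5, 683, 735, 735 and 778, and unstimulated cells had 839. Every EGF array lay above every serum array, a separation shared by 2 of 28 members (IDI1 and FASN), against 0.828% of the genes tested. The difference was 0.64 at the late times (SE 0.13, limma adjusted p = 0.0842), 0.39 at the early ones (SE 0.13, adjusted p = 0.276) and 0.52 over all times (SE 0.10, 1.43-fold, adjusted p = 0.0662). Its other probe set gave 0.50 at the late times. By their suffix, the probe sets used for IDI1 and HSD17B7 may also match other transcripts.

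FDPS, which makes farnesyl diphosphate, had 1949.6, 1891, 1899.7, 1875, 2113 and 2315 after EGF. After serum FDPS had 1730.3, 1855, 1809.6, 2012, 1975 and 2054, and unstimulated cells had 2095. Its late EGF and serum ranges overlapped, the values spanned 0.42 on the log2 scale over the 13 arrays, and the late difference was 0.15 (SE 0.11, limma adjusted p = 0.476). ACAT2, which condenses acetyl-CoA, reached its highest signal of 339 on the EGF array of 480 min, against 276 after serum, and was above serum in 6 of 6 pairs. MVK, mevalonate kinase, had a late difference of -0.41 (SE 0.14, limma adjusted p = 0.196), with the 3 late EGF arrays below the 3 late serum arrays. Its 2 dimmer probe sets gave 0.91 and 1.45, so the direction for MVK depends on the probe set. PMVK and MVD, the next kinase and the decarboxylase, had late differences of -0.04 and 0.03, and MVD was dim, with signals of 16.1 to 83.0.

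From squalene to cholesterol the late differences ran from -0.03 to 0.36. MSMO1, which removes methyl groups from sterols, had 3239.7, 2874, 2514, 2854, 3748 and 3242 after EGF. After serum MSMO1 had 2777, 2893, 2563, 2811, 2459.6 and 2871, and unstimulated cells had 2648.5. The highest value was that of EGF at 240 min, and the late EGF and serum arrays overlapped in range, with a difference of 0.36 (SE 0.15, limma adjusted p = 0.271). SQLE, squalene epoxidase, had 2734, 2556, 2588, 2592, 2511 and 2683 after EGF. After serum SQLE had 2696, 2631.5, 2693, 2758, 2610.4 and 3004, and unstimulated cells had 2747. Its late ranges overlapped, the values spanned 0.27 on the log2 scale, and the late difference was -0.03 (SE 0.09, limma adjusted p = 0.884). The next brightest SQLE probe set gave 0.45, with the late EGF arrays above the late serum arrays, and the dimmest gave -0.04. The late result for SQLE therefore depends on the probe set.

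EBP, the sterol isomerase, had 1680.1, 1737, 1853, 1643, 1535 and 1397 after EGF. After serum EBP had 1633, 1659, 1723, 1279, 1538 and 1188, and unstimulated cells had 1465. The late arrays lay below the early arrays after both stimuli with no overlap, while EGF and serum overlapped. Late was below early by 0.18 after EGF and 0.36 after serum, and over both the difference was -0.27 (SE 0.08, limma adjusted p = 0.0833). The other EBP probe sets gave late minus early differences of -0.23 and -0.11 after EGF and -0.06 and -0.07 after serum. In the brighter of them the late EGF arrays lay above the late serum arrays. DHCR7, which completes cholesterol from its last precursor, had 1069.5, 1127, 1080, 1159, 1081 and 1111 after EGF. After serum DHCR7 had 1059, 1137, 1074, 851, 937 and 854, and unstimulated cells had 868. After normalization both stimuli were at 1.19 to 1.28 times the unstimulated value early. At the late times DHCR7 was at 1.20 to 1.31 times after EGF and at 0.947 to 1.03 times after serum. Its late difference was 0.36 (SE 0.10, limma adjusted p = 0.137), and late minus early after serum was -0.34 (SE 0.09, adjusted p = 0.0726). The other DHCR7 probe set gave 0.33 late and 0.25 early, and -0.15 for late minus early after serum. In that probe set the late EGF arrays did not all lie above the late serum arrays. A DHCR7 difference at the late times only therefore depends on the probe set. LSS, which closes the sterol ring, had a late difference of 0.22. HSD17B7 and SC5D had 0.23 and 0.26, and TM7SF2 and NSDHL had 0.05 and -0.03.

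Fatty acids are made from citrate-derived acetyl-CoA and then lengthened and desaturated. SCD, the desaturase that makes monounsaturated fat, had 4089, 4072, 3535, 3176, 3813 and 3507 after EGF. After serum SCD had 3203, 3047, 2985, 3188, 3411 and 2637, and unstimulated cells had 3776. As deposited, the highest values were those of EGF at 20 and 40 min, the lowest was that of serum at 480 min, and the late ranges overlapped. After normalization the highest was that of EGF at 240 min, and the unstimulated array lay above EGF at 20 and 40 min. The difference over all times was 0.25 (SE 0.09, limma adjusted p = 0.182), and all 4 of its probe sets were positive at the late times, from 0.29 to 0.78. FASN, which assembles palmitate, had 619, 699.7, 682, 547, 567 and 639.5 after EGF. After serum FASN had 499, 453.5, 522, 490.3, 531 and 421.5, and unstimulated cells had 614.5. Every EGF array was above every serum array, with a difference of 0.35 over all times (SE 0.10, limma adjusted p = 0.117) and 0.42 at the early times (SE 0.13, adjusted p = 0.26).

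ACLY, which makes the acetyl-CoA, had 1659, 1464, 1519, 1615, 1872 and 1936 after EGF. After serum ACLY had 1660.3, 1604, 1601, 1668, 1719.7 and 1457.5, and unstimulated cells had 1714. The EGF arrays of 240 and 480 min were the highest of the 13, and the late ranges overlapped. Its late difference was 0.23 (SE 0.12, limma adjusted p = 0.341). The other ACLY probe sets gave 0.38 and 0.49, each with the late EGF arrays above the late serum arrays. ELOVL5, an elongase of polyunsaturated chains, had 2235, 2362, 2171, 1981.5, 2132 and 1846 after EGF. After serum ELOVL5 had 2209, 2256, 2192, 2053, 1981 and 1874, and unstimulated cells had 1883. Both stimuli gave similar ELOVL5 values at every time, with a late difference of 0.10 (SE 0.10, limma adjusted p = 0.622). ACACA, which makes malonyl-CoA, and FADS2, a desaturase, had late differences of 0.15 and 0.24, and ELOVL6, an elongase of saturated chains, had -0.05.

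**Figure D2:**
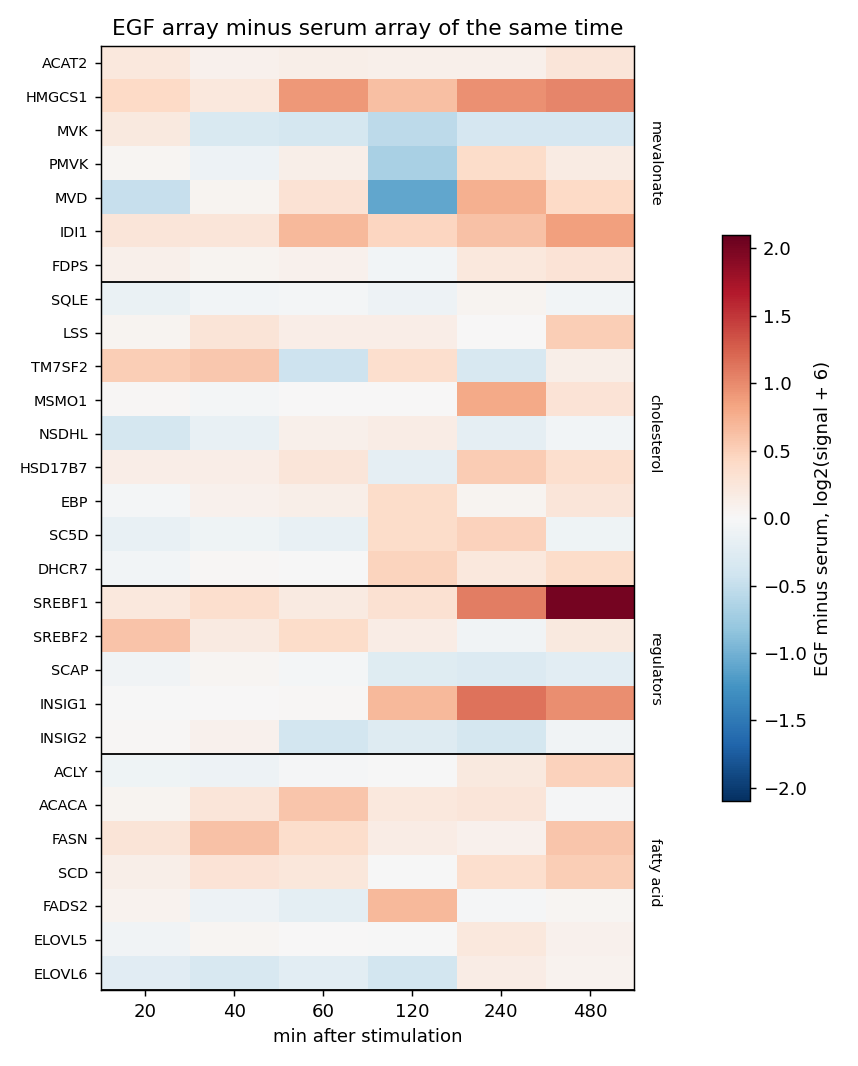
EGF array minus serum array of the same time for each of the 28 members, as a difference of quantile-normalized log2(signal + 6), with columns for 20 to 480 min and genes grouped by role. The strongest cell is SREBF1 at 480 min (2.0), HMGCS1 and IDI1 are positive in all 6 columns, and INSIG1 is near 0 in the first 3 columns and 0.68 to 1.14 in the last 3.

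Counted together, 21 of 28 members had a late EGF minus serum difference above 0, against 51.1% of the genes tested. The median was 0.19 over the members, 0.19 over the 16 sterol enzymes (12 above 0) and 0.23 over the 7 fatty acid enzymes (6 above 0), against 0.01 over all genes tested. With 1 array left out the sterol median ran from 0.09 to 0.26, lowest without either array of 480 min, and the fatty acid median from 0.13 to 0.24, also lowest without an array of 480 min. The largest differences were those of SREBF1, INSIG1, HMGCS1 and IDI1. An unadjusted p under 0.05 was found late in 7 of 28 (25%), against 18.9% of the genes tested. The 3 late EGF arrays lay above the 3 late serum arrays for DHCR7, FASN, HMGCS1, IDI1, INSIG1 and SREBF1 (6 of 28, against 11.7%). They lay below for INSIG2, MVK and SCAP (3 of 28, against 10.8%). Both counts are for the probe sets used, and other probe sets of DHCR7 and MVK, among others, gave otherwise.

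**Figure D3:**
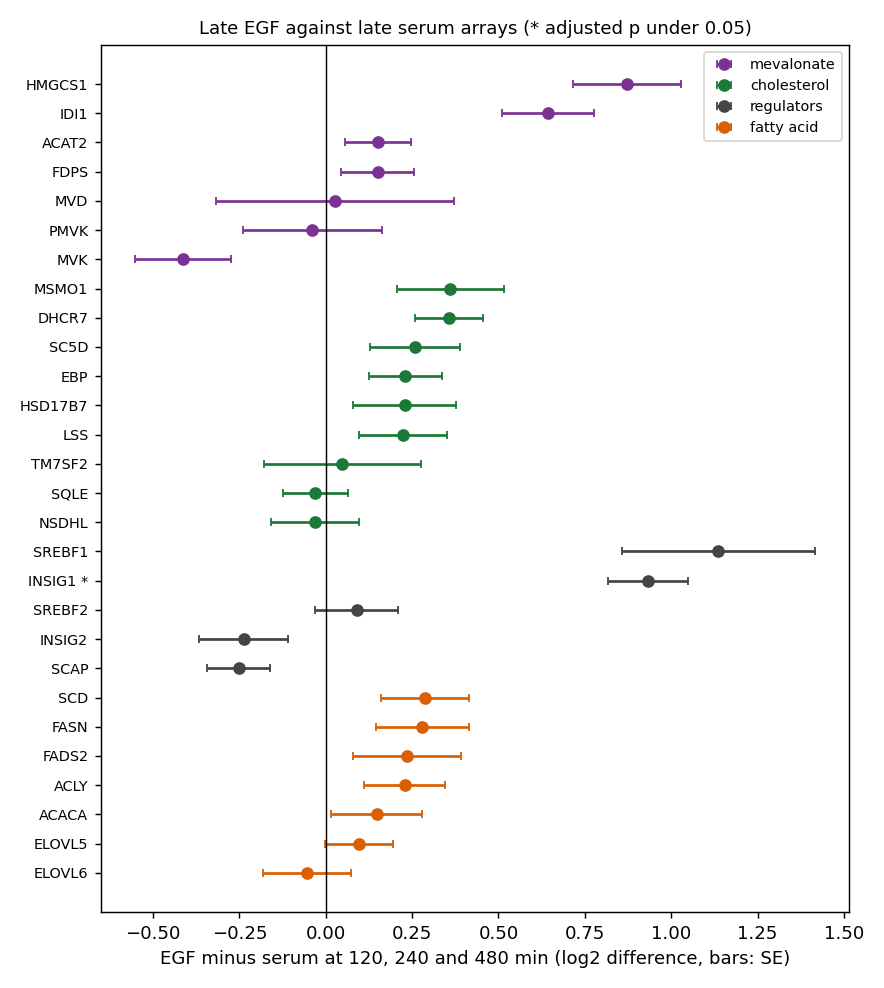
Late EGF minus late serum difference (log2, horizontal axis) for each member, grouped by role, with bars of 1 SE and an asterisk for an adjusted p under 0.05. INSIG1 at 0.93 is the one member marked, SREBF1 lies farther out at 1.14 with an SE of 0.28, and MVK is lowest at -0.41.

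Over all 6 times no member passed the EGF against serum test, in which 0.129% of the genes did. At an unadjusted p under 0.05 there were 9 of 28 (32.1%), against 20.5% of the genes tested. EGF was higher in 6 of 6 time pairs for ACAT2, FASN, HMGCS1, IDI1, LSS and SREBF1 (6 of 28, against 6.07%), and lower in 6 of 6 for 0 members, against 6.86%. These counts of time pairs are for the probe sets used. In the first hour no gene of the 7731 passed (0%), and 4 members, FASN, HMGCS1, IDI1 and SREBF2, had an unadjusted p under 0.05, against 14.4%. The early medians were 0.04 over the sterol enzymes and -0.01 over the fatty acid enzymes, and with 1 array left out they ran from 0.01 to 0.07 and from -0.03 to 0.02. All 3 early EGF arrays lay above the early serum arrays for 8 of 28 members, against 10.3%, and below them for SC5D (1 of 28, against 11.4%).

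Late arrays were set against early ones to follow each stimulus over time. Over both stimuli no member passed, against 3.47% of the genes tested, and 10 of 28 had an unadjusted p under 0.05, against 23.9%. SREBF1 differed most, by -0.74 (SE 0.19, limma adjusted p = 0.0558), followed by HMGCS1 with 0.32 (SE 0.14, adjusted p = 0.194) and FADS2 with -0.27 (SE 0.10, adjusted p = 0.129). After EGF no member passed, against 0.259%, and 5 had an unadjusted p under 0.05, against 14.5%. HMGCS1 differed by 0.50 there (SE 0.20, limma adjusted p = 0.291) and SREBF2 by -0.38 (SE 0.12, adjusted p = 0.22). The other HMGCS1 probe set gave 0.08 after EGF and -0.44 after serum, where the one used gave 0.14. The HMGCS1 direction over both stimuli therefore depends on the probe set. After serum no member passed, against 1.33%, and 6 had an unadjusted p under 0.05, against 20.2%, all of them lower late, against 10.1% of the genes lower.

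After serum the 7 fatty acid enzymes all had differences below 0, against 49.1% of the genes tested, with a median of -0.13. On the probe sets used FADS2 differed most, by -0.43 (SE 0.14, limma adjusted p = 0.128). After EGF 6 of the 7 were below 0, against 46.4%, with a median of -0.12, and ACLY had 0.26. That median ran from -0.157 to -0.003 over 22 alternatives, and SCD with -0.03 and ELOVL6 with -0.01 lay near 0 after EGF. SCD had -0.10 after serum on the probe set used, and its other probe sets gave -0.46, -0.73 and -1.12. With probe sets averaged per gene SCD had -0.60 after serum and passed (limma adjusted p = 0.0382). The sterol enzymes had medians of 0.05 after EGF (0.02 to 0.13 with 1 array left out) and -0.08 after serum (-0.16 to -0.03). Within that group the mevalonate genes had 0.17 after EGF and 0.10 after serum, and the genes from squalene to cholesterol -0.02 after EGF and -0.24 after serum. Among the mevalonate genes MVK had 0.07 after serum on the probe set used, and its other probe sets gave -0.61 and -1.03. With probe sets averaged per gene MVK had -0.52 after serum and also passed (limma adjusted p = 0.0418). The medians over all genes tested were 0.02 after EGF and 0.01 after serum. All 3 late serum arrays lay below the early serum arrays for DHCR7, EBP, ELOVL5, FADS2, INSIG1, LSS and SREBF1 (7 of 28, against 12.5%). After EGF the same held for EBP, MVK, SCAP and SREBF2 (4 of 28, against 9.66%), and INSIG1 alone had its late EGF arrays above its early ones (1 of 28, against 10.8%).

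**Figure D4:**
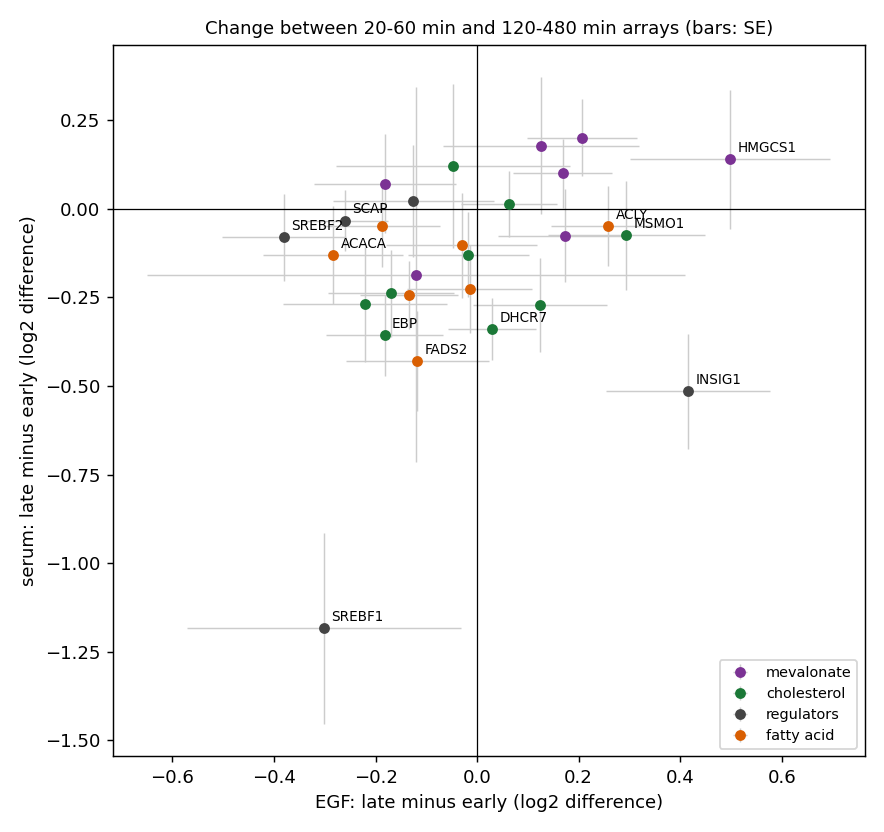
Late minus early difference (log2) after EGF on the horizontal axis and after serum on the vertical axis for the 28 members, coloured by role, with bars of 1 SE. SREBF1 lies lowest (-0.30 after EGF, -1.18 after serum), and INSIG1 lies right of 0 and below 0 (0.42 after EGF, -0.51 after serum).

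The difference in late minus early between EGF and serum did not pass for any member, against 0.0259% of the genes tested, and INSIG1 and DHCR7 had an unadjusted p under 0.05, against 11.1%. Its values were 0.93 for INSIG1 as above, 0.88 for SREBF1 (SE 0.40, limma adjusted p = 0.469), and 0.40 for SC5D (SE 0.19, adjusted p = 0.481). The SREBF1 value was 0.45 when an array of 480 min was left out and 1.29 when one of 120 min was.

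The average of both stimuli at each time was set against the unstimulated array, which is single and shared by these comparisons. No member passed at 20 min (against 0.0259% of the genes tested), 40 min (0.0776%), 60 min (0.0776%), 120 min (0.0259%), 240 min (0%) or 480 min (0%). At an unadjusted p under 0.05 there were 0, 1, 1, 3, 1 and 1 of 28 at these times, against 5.90%, 7.04%, 7.44%, 9.25%, 9.73% and 11.8% of the genes tested. At 20 min INSIG2 had 0.32 (SE 0.20, limma adjusted p = 0.964), HMGCS1 -0.31 and DHCR7 0.28. At 40 min MVD had 1.19 (SE 0.48, limma adjusted p = 0.664), INSIG2 0.39 and ELOVL6 -0.35, and at 60 min MVD had 0.61, ELOVL6 -0.49 and HSD17B7 -0.46. At 120 min HSD17B7 had -0.56 (SE 0.22, limma adjusted p = 0.488), and LSS and ELOVL6 had -0.47 each. ELOVL6 and LSS, which lengthen fatty acids and close the sterol ring, recur on the low side at several of these times, all against the same array. SREBF1 differed most at 240 min, by -0.97 (SE 0.51, limma adjusted p = 0.58), and at 480 min, by -0.94 (SE 0.51, adjusted p = 0.523). The 480 min value averages an EGF array at 1.04 times and a serum array at 0.26 times the unstimulated one, and it was -1.73 without the EGF array and -0.16 without the serum array. MVD had 0.62 at 240 min, which was 0.16 without the EGF array and 1.07 without the serum array of that time, and 0.79 at 480 min. LSS had -0.55 at 240 min and ELOVL6 -0.52 at 480 min. MVD is the dimmest member, and its values over the 13 arrays had an SD of 0.63.

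With 240 and 480 min combined no member passed, against 0% of the genes tested, and 2 had an unadjusted p under 0.05, against 11.8%. SREBF1 had -0.96 (SE 0.47, limma adjusted p = 0.477), MVD 0.70 and ELOVL6 -0.49. The SREBF1 value ran from -1.35 to -0.56 with 1 array left out, the ends being without the EGF and without the serum array of 480 min. The 7 fatty acid enzymes were all below 0, against 47.9% of the genes tested, with a median of -0.22. Of the 16 sterol enzymes 10 were above 0, against 52.1%, with a median of 0.07 (0.02 to 0.10 with 1 array left out). ELOVL6, HSD17B7, LSS, SCAP and SQLE were lower on all 12 stimulated arrays than on the unstimulated one (5 of 28, against 7.55%), a count that rests on that 1 array and on normalized values. As deposited, SQLE was higher than unstimulated on the serum arrays of 120 and 480 min.

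Neighbouring lipid genes gave no call between EGF and serum or between late and early. Of 14 other genes linked to SREBP control 9 were tested, and their late EGF minus serum median was 0.01, with 2 of 9 at an unadjusted p under 0.05, against 18.9% of all genes tested. ME1, which supplies NADPH, had 0.49 (SE 0.12, limma adjusted p = 0.109), GGPS1, which makes geranylgeranyl diphosphate, 0.37 (SE 0.11, adjusted p = 0.162), and MBTPS2, the protease that releases the SREBPs, -0.47 over all times (SE 0.14, adjusted p = 0.139). Of 7 genes linked to LXR or to sterol storage and export 4 were tested, of which 2 had late differences above 0 and 2 below, and 2 of the 4 had an unadjusted p under 0.05, against 18.9%. SOAT1, which esterifies cholesterol for storage, had an EGF minus serum difference of -0.74 over all times (SE 0.11, limma adjusted p = 0.0538). ABCG1, a sterol exporter and LXR target, had a late minus early difference of -1.19 after serum (SE 0.35, limma adjusted p = 0.0989) and -0.08 after EGF (SE 0.35, adjusted p = 0.948). Of 8 genes of fatty acid oxidation 6 were tested, with a late EGF minus serum median of -0.27 and 3 of 6 at an unadjusted p under 0.05, against 18.9%. CPT1A, which admits fatty acids to mitochondria, had -0.45 there (SE 0.12, limma adjusted p = 0.137) and ACADM, a dehydrogenase of medium chains, -0.50 (SE 0.20, adjusted p = 0.252). CD14, the one tested leukocyte marker, was lower late than early over both stimuli, by a difference of -0.79 (SE 0.15, limma adjusted p = 0.0219), with -0.54 after EGF (adjusted p = 0.28) and -1.05 after serum (adjusted p = 0.0405). COL1A1, the one tested fibroblast marker, had -0.59 over both stimuli (SE 0.19, limma adjusted p = 0.102), with -0.45 after EGF and -0.72 after serum. CD14 and PTPRC, the 2 leukocyte markers, summed to 115.2 to 200.7 on the late EGF arrays, 93.3 to 126.9 on the late serum arrays and 185.7 on the unstimulated one. COL1A1 and COL3A1 summed to 27.3 to 51.0 on the late EGF arrays, 28.5 to 40.1 on the late serum arrays and 73.2 on the unstimulated one. The part of these markers in the members' values was not tested.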

How the data were processed

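Per the submitters' processing notes the arrays were summarised with MAS5, with the version not given in the sources used here. In the deposited table there is 1 intensity, the MAS5 signal on a linear scale, for each of 22277 probe sets and 13 arrays. The authors' scaling left a mean of 150.04 to 150.05 on every array after trimming 2% at each end. Probe sets carrying 1 gene symbol (19064) were used, and each gene was represented by its brightest probe set. Values were taken as log2 of signal plus 6 (the 20th percentile, rounded) and quantile normalized, because array medians ran from 5.4 to 5.7. Genes under the 40th percentile of probe set means (4.68) were left out. Linear models were fitted with limma 3.58.1 in R 4.3.3 (lmFit, eBayes, Benjamini-Hochberg over 7731 genes). Group means of phases left 8 residual degrees of freedom. The EGF minus serum contrast had a block for each time, leaving 5, or 4 when split by phase, and times were set against the unstimulated array with stimulus added to the model, leaving 5. The procedure was tested on simulated data.

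The members and lists were chosen with earlier results of these data known. All 13 signals are given for members past the threshold, for the 3 brightest of each role and for INSIG1, INSIG2, SREBF1 and SREBF2, and the 3 largest differences are named in each comparison. DHCR7, FASN and the other members were added after their values were seen. Alternatives were other offsets, filters, normalization, probe set rules, variance models and times, and each array left out. Figures used matplotlib 3.10.9, numpy 2.4.6 and pandas 2.3.3 in Python 3.11.15.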

Additional observations from a re-analysis of the deposited data

Results flagged for a closer look

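INSIG1 differed between EGF and serum at the late times, by 0.93 on the log2 scale (limma adjusted p = 0.0241), with all 3 EGF arrays above and all 3 serum arrays below the single unstimulated array. HMGCS1 and IDI1 showed the same opposite placement around that array, with EGF minus serum differences of 0.87 (limma adjusted p = 0.0695) and 0.64 (adjusted p = 0.0842), neither past the threshold. The placement of all 3 genes rests on 1 unstimulated array.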

How the results depend on the processing

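The number of members past the threshold for late EGF minus serum was 1. It was 3 with 4 times the offset, 4 with the filter at the 60th percentile, 5 with a variance trend and robust variances, and 0 with no filter on dim genes, with late as 240 and 480 min only, or with both arrays of 20 min left out. With 1 array left out it was 0 to 1, and 0 for each of the 12 stimulated arrays, each of which takes its time pair out of the stimulus estimate. The 4 under the 60th percentile were INSIG1, SREBF1, HMGCS1 and IDI1, and DHCR7 was the added one under the variance trend. Over all times, where 0 members passed, the count was 2 with 4 times the offset, 2 with the 60th percentile and 4 with the variance trend. For late minus early after serum, 0 became 1 with 4 times the offset, 2 with the 60th percentile, 2 with probe sets averaged per gene, 4 with the variance trend and 1 with late as 240 and 480 min only. Over both stimuli the counts were 1, 2, 1, 3 and 1 in the same order. Both were 0 to 1 with 1 array left out, and 1 without the serum array of 120 min. The EGF by phase count of 0 was 1 with the variance trend. Averaging probe sets per gene turned HMGCS1 at 20 min to 0.0506 and FASN late minus early over both stimuli to 0.0275, neither past the threshold in either setting. Fewer genes are tested under the stricter filter, and the other causes were not tested. The EGF minus serum tests were themselves paired by time, and the labels carry no replicate numbers for any other pairing.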
